A study of Mus musculus with 8 samples.

Results

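A set of 8 transcription factor genes known from endothelium was followed in single endocardium cells of the mouse heart tube: the Krüppel-like factors *Klf2*, *Klf4* and *Klf6* and the forkhead factors *Foxc1*, *Foxc2*, *Foxo1*, *Foxo3* and *Foxp1*. The members were chosen by name, as every non-control probe of a 1-colour Agilent array whose gene name in the scanner output was one of these 8 symbols. They came to 12 of the 55681 probes and 8 of the 35560 gene symbols on the array. *Foxp1* had 4 probes, *Foxo1* had 2, and each other member had 1.

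The arrays held 8 cells, 1 cell per array, from embryos at E8.5 with 9 somites. There were 4 WT cells (Mesp1+/+_Sox17flox/flox) and 4 *Sox17* KO cells (Mesp1Cre/+_Sox17flox/flox). All cells carried the floxed *Sox17* allele, and the KO cells alone carried the Cre knocked into *Mesp1*, which is active in nascent mesoderm and hence in the precursors of all cardiac lineages, so that loss of *Sox17* and the *Mesp1*-Cre allele cannot be told apart. Cells were picked by hand after trypsin treatment of the heart tube, and were assigned to the endocardium by PCR for marker genes on their own amplified cDNA. No label ties a cell to its embryo. A genotype was therefore taken as 1 sample, and values are given per cell with no test.

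Krüppel-like factors carry 3 zinc fingers at the C-terminus and bind GC-rich and CACCC elements. KLF2 and KLF4 are known in endothelium as the factors that respond to laminar blood flow: the kinases MEKK3, MEK5 and ERK5 act on MEF2 proteins, which switch on the KLF genes, and the CCM protein complex restrains this route. Forkhead factors bind DNA through a winged helix. FOXC1 and FOXC2 take part in early vascular and arterial development, FOXO1 and FOXO3 are kept out of the nucleus by AKT when growth factors are present, and FOXP1 is mainly a repressor.

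The route from flow to *Klf2* ends at a site for MEF2 proteins in the *Klf2* promoter, and the letters of this site are shown here because *Klf2* was the KLF gene seen in most cells and because *Mef2a* was well above background in all 8 cells. The stretch lies upstream of the *Klf2* start site at chr8:72318894-72319003 of GRCm38.p6, on the plus strand, with sequence and start site from RefSeq. Capitals mark the match to the MEF2 consensus, CTAAATTTAG, which reads the same on both strands.
Klf2 promoter: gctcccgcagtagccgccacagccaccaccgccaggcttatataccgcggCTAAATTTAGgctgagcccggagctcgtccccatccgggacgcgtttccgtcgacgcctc
The first base of the match was at position -118, counted from the start site. Windows from 250 bases before to 50 bases after each start site were searched on both strands. The MEF2 consensus was in 3.19% of 32851 such windows and these exact letters in 13 of them, which is 0.0396%. Of the 7 members with a window in the table, *Klf2* alone had a match. The forkhead letters TGTTTAT lay in windows of *Klf4* and *Foxp1* and in 4.6% of all windows, and TGTTTAC lay in no member's window and in 3.65% of all windows. The letters CACCC, which KLF proteins bind, lay in windows of *Klf2*, *Foxc1* and *Foxp1* and in 57.5% of all windows. These matches describe the letters only.

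Printed next are 4 of the probes of *Foxo1* and *Foxp1*, genes whose probes did not all give the same answer in the same cells. The other *Foxo1* probe, A_52_P453884, is not among them. *Foxp1* probes A_55_P2088825 and A_52_P276792 were called in the same cells. Each probe is 60 bases long, and capitals mark a stop codon at the end of 1 open frame, which places that *Foxp1* probe at the end of a coding region.
Foxo1 A_51_P138044: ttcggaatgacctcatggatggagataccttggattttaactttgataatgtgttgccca
Foxp1 A_55_P2088825: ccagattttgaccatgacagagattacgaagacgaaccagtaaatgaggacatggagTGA
Foxp1 A_52_P276792: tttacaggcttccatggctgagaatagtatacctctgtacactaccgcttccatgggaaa
Foxp1 A_55_P2105452: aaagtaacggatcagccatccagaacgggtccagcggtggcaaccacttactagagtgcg

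As a measure of depth, the number of probes called well above background by the scanner software ranged from 11370 to 18175 per WT cell and from 12781 to 16853 per KO cell. Each array was scaled to the median of the 7570 probes that passed this call on every array, scaled signals under 50 were set to 50 (5.64 on the log2 scale), and a difference is the mean log2 value of KO cells minus that of WT cells, given beside the SD from cell to cell within genotypes, pooled. Values at this floor have no order among themselves, and the level of a probe cannot be set against that of another probe. The arrays shared 1 slide and 1 scan, but WT and KO cells occupied different slide columns, and genotype cannot be told apart from position. The 2 probes of *Sox17* itself were well above background in 0 cells of either genotype, so that the labels could not be checked by the targeted gene. A cell with less RNA and a cell with less of a given transcript cannot be told apart here.

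Of 10 endothelial and endocardial markers, 7 to 10 were well above background in each WT cell and 6 to 9 in each KO cell. *Cdh5* and *Kdr*, which define the lineage, were well above background in all 8 cells. KO cell 1 had the fewest, with *Tek*, *Nfatc1* and *Sox7* at the floor and *Cdh5* at 9.50 against 12.24 or more in every other cell. Of the 10 markers, 5 had a higher mean in KO cells and 5 a lower one, with a median difference of -0.06. Among the lower ones were *Tek* at -2.16 (SD 1.88), *Nfatc1* at -1.58 (SD 2.23) and *Cdh5* at -0.96 (SD 1.48). The other *Nfatc1* probe gave the opposite direction, at 1.72. Among the higher ones were *Tie1* at 1.34 (SD 1.92), *Sox7* at 0.84 (SD 2.96) and *Sox18* at 0.53 (SD 1.48). *Emcn*, an endothelial sialomucin, was the 1 marker of the 10 at least 5-fold apart (4.07, SD 2.58), at 8.52, 13.36, 12.54 and 5.64 in KO cells 1 to 4 and at the floor in every WT cell except WT cell 4, at 6.84. Its fold was 7.77 without KO cell 2 and 46.2 without KO cell 4. The summed signal of the endothelial markers, on the log2 scale and with values at the floor counted as 50, ranged from 13.31 to 15.12 in WT cells and from 12.82 to 16.28 in KO cells, with KO cell 1 the lowest of all 8. Of 9 cardiomyocyte markers, 3 to 7 were well above background in WT cells and again 3 to 7 in KO cells, and their summed signal ranged from 9.17 to 15.06 in WT cells and from 10.30 to 15.58 in KO cells. KO cell 1 had the highest cardiomyocyte sum, followed by WT cell 2 at 15.06 and KO cell 4 at 14.83. *Tbx5* was called in no cell, while *Actc1* was called in all 8 cells and differed by 2.67 (SD 2.79), reaching 15.32 in KO cell 1. For smooth muscle, 2 of 3 markers were well above background in each WT and each KO cell, with a summed signal of 7.23 to 13.82 in WT and 7.23 to 12.92 in KO cells. Of 5 blood markers, 1 to 2 were well above background in WT cells and 0 to 1 in KO cells. Of 5 endoderm markers, 0 were in WT cells and 0 to 1 in KO cells. No marker of blood or endoderm rose over the floor in any cell, so that both summed signals stayed at 7.97. The part of these markers in the values of the members was not tested.

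*Klf2*, *Foxc2* and *Foxo1* were the members present in most endocardium cells, each well above background in 7 of 8. *Klf6* was called in 2 cells and *Foxp1* in 2, *Foxc1* and *Foxo3* in 1, and *Klf4* in none. *Klf6* was the member gene at least 5-fold apart between the genotypes, with 2 WT cells high and all KO cells below background. For no member did the values of the genotypes separate without overlap, and 1.38% of the 20265 genes detected in at least 1 cell did so. Of those genes, 3.24% were at least 5-fold lower in KO cells and 3.22% at least 5-fold higher, so that 1 of the 7 detected members lower by this fold stands beside 3.24% in the background.

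**Figure D1:**
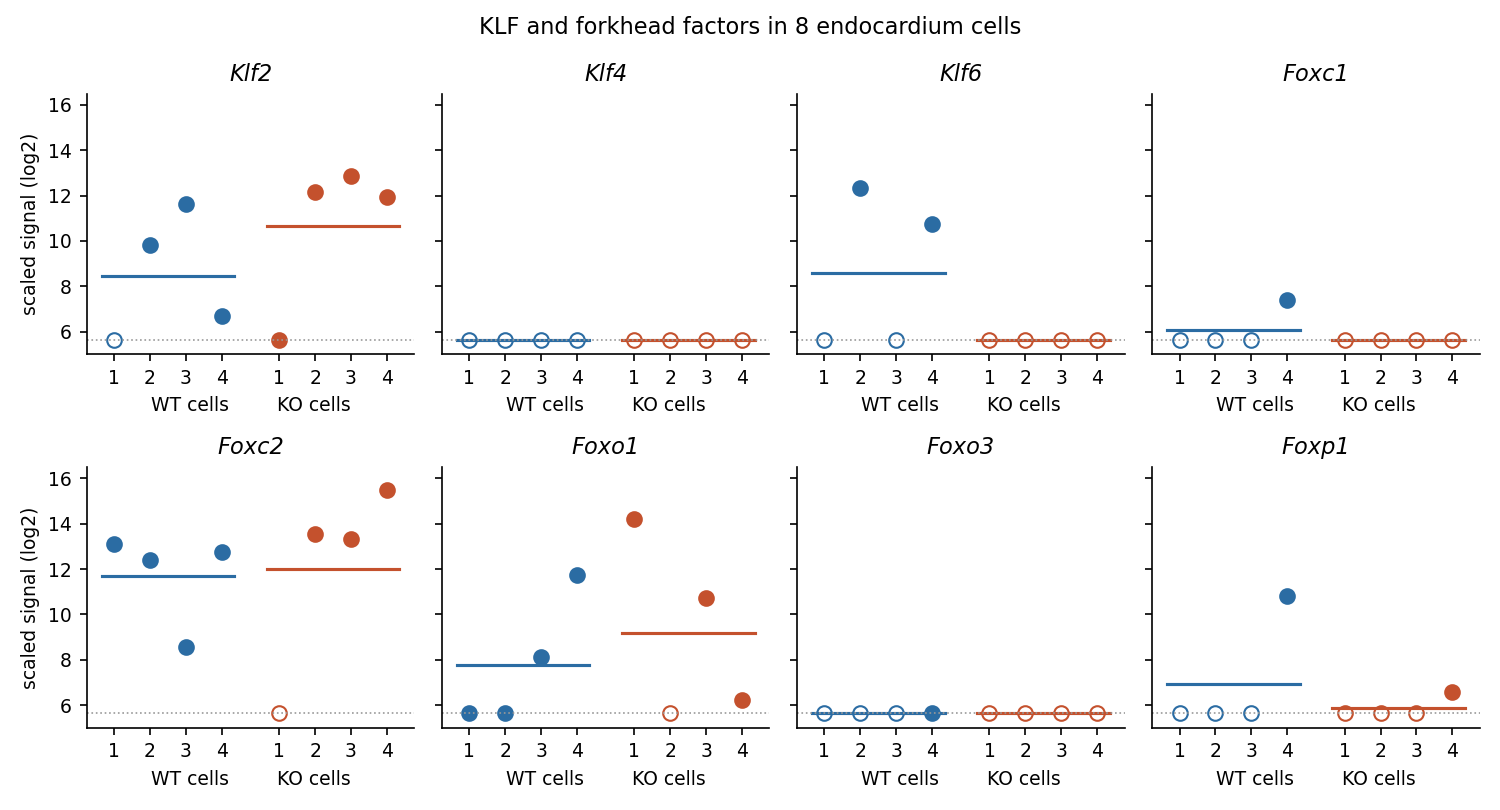
Scaled signal (log2) of each member in the 4 WT cells (blue) and the 4 KO cells (orange), by the probe with the highest mean. Filled points are well above background, open points are not, lines are genotype means and the dotted line is the floor at 5.64. *Klf2* and *Foxc2* are high in KO cells 2 to 4 and at the floor in KO cell 1, and *Klf4* and *Foxo3* lie at the floor throughout.

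*Klf2*, the flow-responsive factor of endothelium, was read by probe A_51_P144264 at chr8:74845137-74845196 of mm9, plus strand. WT cells 1 to 4 gave log2 signals of 5.64, 9.80, 11.63 and 6.68, while KO cells 1 to 4 gave 5.64, 12.14, 12.87 and 11.95. KO cells 2 to 4 lay above every WT cell, whereas KO cell 1 shared the floor with WT cell 1. In KO cell 1 the probe was still called well above background, at a scaled signal of 21.7, and in WT cell 1, the array with the fewest probes detected, it was not called, at 15.0. The mean was 2.21 higher in KO cells with an SD between cells of 3.08, a 4.64-fold difference that was smaller than the spread between cells. The medians were 8.24 for WT and 12.04 for KO cells.

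Single cells carried most of the weight in this difference. Without KO cell 1 it rose to 3.88, or 14.7-fold, and without WT cell 1 it was 1.28, or 2.43-fold. Before the floor was set, the scaled signal of *Klf2* spanned 344-fold from the lowest to the highest KO cell, and 211-fold within WT cells. Both lowest cells lay under the floor, and that of the WT cells was not called, so these spans are rough. Among the 1554 genes that were also well above background in exactly 7 cells, the median SD between cells was 2.01, and 77.7% had a smaller SD than *Klf2*. They were not matched to *Klf2* in level, and called values at the floor add no spread.

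*Klf4*, the close relative of *Klf2* that shares much of its role in endothelium, was read by probe A_55_P2122020 at chr4:55540167-55540226 of mm9, minus strand. It was well above background in 0 of 8 cells and did not pass the laxer call, positive and significant over background, in any cell either. Its highest scaled signal was 5.16, against a floor of 50. Of all gene symbols on the array, 43.0% were likewise detected in no cell. Lack of a call gives only an upper bound on the level.

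*Klf6*, a widely expressed KLF known for its induction by injury, was read by probe A_51_P451346 at chr13:5869371-5869430 of mm9, plus strand. WT cells 2 and 4 stood at 12.33 and 10.75, and the other 6 cells lay at the floor. None of these 6 was called well above background, though WT cell 3 passed the laxer call. Over all cells the signal was 7.71-fold lower in KO than in WT cells (-2.95 on the log2 scale, SD 2.45). This value rests on the floor and is no bound, because no KO cell gave a measured level. On the log2 scale it was -4.11 with a floor of 10 and -1.95 with a floor of 200. The value also rested on WT cells 2 and 4. Without WT cell 2 it fell to 3.25-fold and without WT cell 4 to 4.69-fold. Without WT cell 1 or WT cell 3 it was 15.2-fold.

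*Foxc1* was read by probe A_55_P1967761 at chr13:31902423-31902482 of mm9, plus strand. WT cell 4 was the sole cell with a call, at 7.39, and the other 7 cells lay at the floor. The signal was 1.35-fold lower in KO cells (-0.44 on the log2 scale, SD 0.62), a value that rests on the floor and on 1 cell. Without that cell it came to 0.0 on the log2 scale. WT cell 4 was also the array with the most probes detected.

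*Foxc2*, the paralogue of *Foxc1*, was read by probe A_51_P196444 at chr8:123642693-123642752 of mm9, plus strand. WT cells 1 to 4 gave log2 signals of 13.12, 12.40, 8.55 and 12.76, while KO cells 1 to 4 gave 5.64, 13.56, 13.34 and 15.49. KO cells 2 to 4 were above every WT cell, as for *Klf2*. KO cell 1 was the sole cell not called well above background, at a scaled signal of 11.4, and it still passed the laxer call. The 2 means differed by 0.30 (1.23-fold, SD 3.42), far less than the spread between cells. Without KO cell 1 the difference was 2.42 and without KO cell 4 it was -0.86, so that its direction depended on single cells.

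*Foxc2* was thus called without *Foxc1* in 6 cells and with it in WT cell 4 alone. Across the 8 cells *Klf2* and *Foxc2* had a Pearson's r of 0.409 on the log2 scale, with KO cell 1 low for both and WT cell 1 low for *Klf2* alone. The points share the scaling of their arrays and the floor, and r is given as a description.

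*Foxo1*, the main FOXO factor of endothelium and a sensor of AKT activity, had 2 probes on the plus strand of chr3, at chr3:52150183-52150242 and chr3:52153289-52153348 of mm9. By the brighter probe, A_51_P138044, WT cells 1 to 4 stood at log2 signals of 5.64, 5.64, 8.11 and 11.73, while KO cells 1 to 4 stood at 14.19, 5.64, 10.73 and 6.24. It was called in all 4 WT cells, 2 of them under the floor, and in every KO cell except KO cell 2. The mean was 1.42 higher in KO cells (2.67-fold, SD 3.50), and without KO cell 1, the cell with no call for *Foxc2*, the difference was -0.24.

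The other *Foxo1* probe, A_52_P453884, starts 3106 bases further along the plus strand and gave the opposite direction. It was called in WT cells 3 and 4, at 13.37 and 8.97, and in 0 KO cells. By this probe the signal was 6.79-fold lower in KO cells (-2.76 on the log2 scale, SD 2.59), a value that rests on the floor and is no bound. The probe was 1 of 2 member probes at least 5-fold apart, with that of *Klf6*, both lower in KO cells. Of the 26833 probes detected in at least 1 cell, 2.85% were at least 5-fold lower. Without WT cell 3 the difference by this probe was 2.16-fold, and without WT cell 1 or WT cell 2 it was 12.9-fold. KO cell 1 was the highest cell by the first probe and was not called by the second, where it passed the laxer call alone. The Pearson's r between the probes was 0.119 over 8 cells, and the difference of the mean of both probes was -0.67. The cause of their disagreement was not tested.

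**Figure D2:**
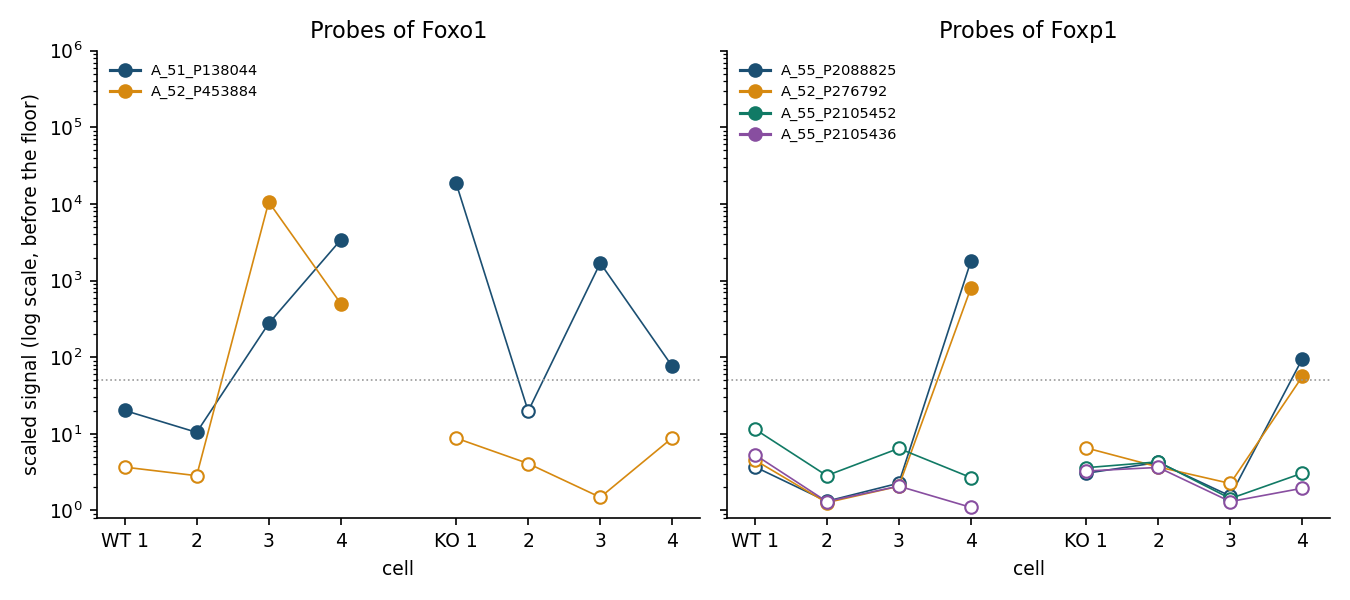
Scaled signal before the floor (log axis) of each probe of *Foxo1* (left) and *Foxp1* (right) in WT cells 1 to 4 and KO cells 1 to 4. Filled points are well above background and the dotted line is the floor of 50. The *Foxo1* probes part in KO cell 1, where 1 reads 18687 and the other is not called. Of the 4 *Foxp1* probes, 2 rise together in WT cell 4 and KO cell 4.

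*Foxo3*, the second FOXO factor of the list, was read by probe A_55_P2150896 at chr10:41905610-41905669 of mm9, minus strand. It was well above background in WT cell 4 alone and below the floor in all 8 cells, with a highest scaled signal of 14.9 in KO cell 2, where it was not called. No fold is given, since no cell rose over the floor. Under the laxer call it was positive and significant in 7 cells, 4 WT and 3 KO.

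*Foxp1*, a forkhead repressor with a part in cardiac and endothelial growth, had 4 probes, of which 3 are placed on the minus strand of chr6 in mm9. The probe that ends in the stop codon, A_55_P2088825 at chr6:98880084-98880143, was called in WT cell 4 (10.80) and in KO cell 4 (6.57) and lay at the floor in the other 6 cells. A_52_P276792, which has no position in the files, was called in the same cells, at 9.64 and 5.81. The other placed probes lie 76595 and 232841 bases further upstream on the gene's strand, at chr6:98956679-98956738 and chr6:99112925-99112984, and were called in 0 cells. The cDNA was primed from the poly(A) tail, and the part of the probes' position in these calls was not tested.

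By the first of these probes *Foxp1* was 1.06 lower in KO cells (-1.06, SD 1.85), and by the second 0.96 lower (-0.96, SD 1.41). Both are differences between 1 WT cell and 1 KO cell against the floor. Without WT cell 4 the first became 0.23.

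WT cells 1 to 4 had 2, 4, 3 and 7 member genes called, and KO cells 1 to 4 had 2, 2, 3 and 4. WT cell 4, the array with the most probes detected, had every member except *Klf4*, and it was the sole source of a call for *Foxc1* and *Foxo3*. WT cell 1 and KO cell 2, with the fewest probes detected, had 2 members each. KO cell 1 also had 2, *Klf2* and *Foxo1*, with 14166 probes detected. The part of depth in the number of calls was not tested.

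*Klf2*, *Foxc2* and *Foxo1* had a larger SD from cell to cell than most genes called as often. Of the 1554 genes called in 7 cells, 86.8% had a smaller SD than *Foxc2* and 89.4% a smaller SD than *Foxo1*. These genes were not matched to the members in level. Of the probes called in a cell, 30.4% (KO cell 2) to 44.9% (KO cell 3) lay at the floor, where values do not vary. Any 2 of these 3 members were called together in 6 of 8 cells, which follows from 1 missing cell each: WT cell 1 for *Klf2*, KO cell 1 for *Foxc2* and KO cell 2 for *Foxo1*. Presence in 1 or 2 cells, as for *Klf6*, *Foxp1*, *Foxc1* and *Foxo3*, was shared by 22.2% of detected genes with 1 cell and 11.0% with 2 cells, and 30.9% of detected genes were called in all 8 cells, a class with no member.

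**Figure D3:**
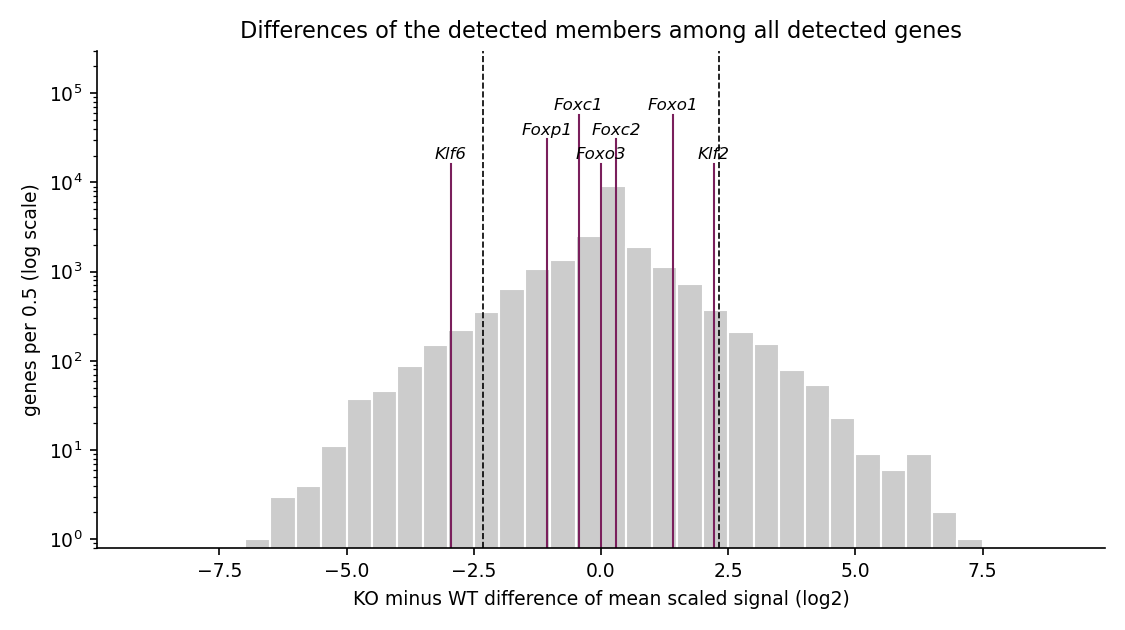
KO minus WT difference of the mean scaled signal (log2) for the 20265 genes detected in at least 1 cell, as genes per bin of 0.5 on a log axis, with a line at the value of each of the 7 detected members. Dashed lines mark 5-fold. *Klf6* lies beyond the lower line at -2.95, *Klf2* just inside the upper line at 2.21, and the other 5 members between them.

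The probes whose values were most like those of each frequent member were sought among 12244 probes of other genes called in at least 4 cells. For *Klf2* these were the probes of *Ivns1abp*, with a Pearson's r of 0.987, of an intergenic transcript on chromosome 1 with 0.972, and of *Bud31*, a splicing factor, with 0.965. Each lay at the floor in WT cell 1 and KO cell 1 and high in WT cells 2 and 3 and KO cells 2 to 4. In WT cell 4, where *Klf2* stood at 6.68, *Ivns1abp* and the intergenic transcript lay at the floor and *Bud31* at 6.06. These r values thus rest largely on which cells lay at or near the floor. For *Foxc2* they were *Uba2*, a subunit of the SUMO-activating enzyme (0.959), *Nrbp1* (0.955) and *Naa10*, an N-terminal acetyltransferase (0.943), all lowest in KO cell 1 and highest in KO cell 4. For *Foxo1* they were *Macroh2a2*, a histone variant (0.979), *Ppp1r12c* (0.974) and *Sec24b*, a COPII coat protein (0.968), all highest in KO cell 1. These r values describe 8 cells and were taken as the highest of many.

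Among the other KLF genes, 8 of 14 were called in at least 1 cell and none in all 8. Their median difference was 0.15, beside 0.00 over all detected genes, with 1 at least 5-fold higher in KO cells and 0 lower. The higher one was *Klf3*, a repressor KLF, which was picked out after its values were seen. It was called in KO cells 2 and 4 (10.02 and 10.96) and in no WT cell. With the other cells at the floor, its mean was 5.36-fold higher in KO cells (2.42, SD 2.0). Without KO cell 2 or KO cell 4 it was under 5-fold, and a second, dimmer probe gave -0.91. By its brighter probe, *Klf3* was thus called in no cell with a call for *Klf6*, and the cells of its dimmer probe were not compared.

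Among the other forkhead genes, 18 of 39 were called in at least 1 cell, 7 of them in all 8, and 9 of the 18 never rose over the floor. The median difference was 0.00, with 0 higher and 1 lower by at least 5-fold. *Foxp4*, a relative of *Foxp1*, was called in all 8 cells, with log2 signals of 8.53, 9.998, 8.0 and 13.65 for WT cells 1 to 4 and of 8.44, 8.62, 6.34 and 7.07 for KO cells 1 to 4. The genotypes overlapped, and the difference was -2.43 (SD 1.96). WT cell 4, the highest cell for *Foxp4* and for *Foxp1*, carried much of it: without that cell the fold was 2.34, without KO cell 3 it was 4.00 and without KO cell 4 it was 4.74. Of the other *Foxp4* probes, 1 gave -2.76 and the other stayed at the floor.

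*Foxl2*, a forkhead factor known from the ovary, was chosen after its values were seen. It was called and lay over the floor in all 8 cells, from 11.24 to 13.52 (SD 0.76, difference 0.31). Its second probe was also called in all 8 cells and lay below the floor in each, at scaled signals of 12.5 to 34.3.

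Upstream of *Klf2* and *Klf4*, 7 of 10 genes were called, with a median difference of 0.13 (-0.45 without KO cell 2) and 0 at least 5-fold apart. *Mapk7*, which encodes ERK5, was called in all 8 cells (difference 1.49, SD 1.84), and its kinase *Map2k5* in 1 WT and 3 KO cells (2.03, SD 2.67). *Map3k3*, which encodes MEKK3, went the other way. It was called in 2 WT cells and 0 KO cells (-0.45, SD 0.64). *Mef2a* was called in all 8 cells with a difference of 0.13 (SD 1.36), while *Mef2c*, *Mef2d* and *Heg1* were called in no cell. The CCM genes *Krit1* and *Pdcd10* were called in 2 and 3 cells and *Ccm2* in 7 (0.74, SD 2.60).

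Of 7 targets of KLF2 and KLF4, 4 were called, with a median difference of -0.46 and 1 at least 5-fold higher in KO cells. *S1pr1*, the endothelial receptor for sphingosine 1-phosphate, stood at 10.91, 9.54, 5.64 and 8.88 across WT cells 1 to 4, and at 12.21, 13.60, 11.59 and 9.85 in KO cells 1 to 4. KO cells 1 to 3 were above every WT cell, and KO cell 4 was below WT cell 1. The difference was 3.07 (SD 1.92), and without WT cell 3 it was 2.04, or 4.10-fold. KO cell 1, where *Klf2* was under the floor, was the second highest cell for *S1pr1*. *Nos3*, the endothelial nitric oxide synthase, was called in all 8 cells with a difference of -0.92 (SD 0.80), and *Thbd*, thrombomodulin, in 4 cells (-1.67, SD 2.16). *Wnt9b* was called in 1 WT and 2 KO cells but lay at the floor in every cell, so that its difference was 0.0. *Edn1*, *Vcam1* and *Sele* were called in no cell and do not enter the median.

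**Figure D4:**
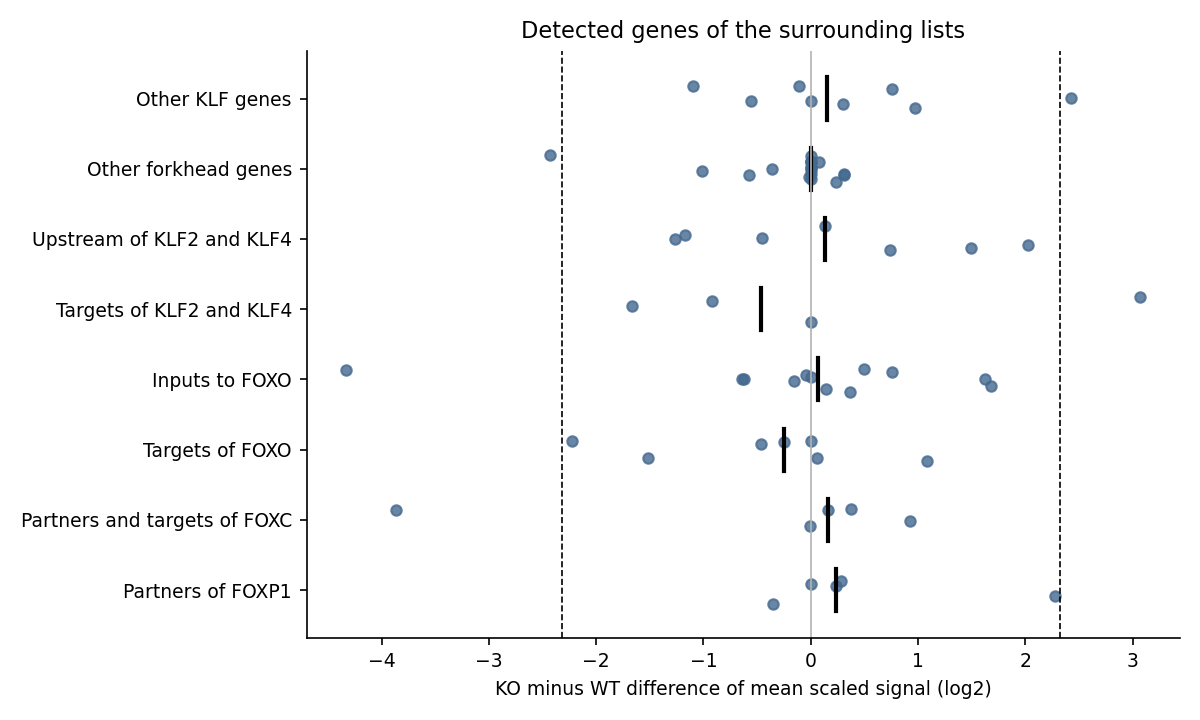
KO minus WT difference of the mean scaled signal (log2) for each gene called in at least 1 cell, by list, with the list's median as a black bar and dashed lines at 5-fold. Points are spread vertically for view. Of 66 called genes over the 8 lists, 2 lie beyond the upper line (*Klf3* and *S1pr1*) and 3 beyond the lower (*Foxp4*, *Sgk1* and *Etv2*).

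All 12 genes that feed into FOXO were called in at least 1 cell, with a median difference of 0.07. *Akt1*, the kinase that keeps FOXO proteins out of the nucleus, was called in all 8 cells and differed by -0.05 (SD 1.20). *Sgk1*, a related kinase that also phosphorylates FOXO proteins, was the 1 gene at least 5-fold lower in KO cells and was picked out after its values were seen. It stood at 5.64, 11.35, 13.45 and 9.96 across WT cells 1 to 4, and at 6.16 in KO cell 1, with KO cells 2 to 4 at the floor. The difference was -4.33 (SD 2.34), and WT cell 1 overlapped with the KO cells. Without WT cell 1 it was -5.82, and without WT cell 3 it was -3.21. Of 13 FOXO targets, 7 were called, with a median of -0.25 and 0 at least 5-fold apart, *Cited2* at -2.22 (SD 2.32) and *Cat*, catalase, at 1.08 (SD 1.47) among them. The count of 0 lower by this fold became 2 without KO cell 1 or with a floor of 10, and 1 without WT cell 1, WT cell 3 or WT cell 4 or with other percentiles or orders of scaling.

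Of 8 partners and targets of FOXC, 5 were called, with a median of 0.16. *Etv2*, the ETS factor that acts with FOXC proteins on endothelial enhancers, stood at 15.50, 5.64, 13.58 and 12.49 across WT cells 1 to 4, and at 7.31, 6.35, 5.64 and 12.46 in KO cells 1 to 4. WT cell 2 was as low as the lowest KO cell, and KO cell 4 was close to WT cell 4. The difference was -3.86 (SD 3.74), a second probe gave -3.59, and it was -2.63 when WT cell 1 was left out and -5.92 when WT cell 2 was. *Dll4*, the NOTCH ligand, was called in 6 cells (0.16, SD 1.92). Of 6 partners of FOXP1, 5 were called, with a median of 0.23 and 0 at least 5-fold apart. Over the 8 lists together, 2 of 66 called genes were at least 5-fold higher (3.03%) and 3 lower (4.55%), beside 3.22% and 3.24% of all detected genes, and none separated the genotypes without overlap.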

How the data were processed

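The authors deposited the scanner output of 8 1-colour Agilent arrays (Feature Extraction 12.0.2.2, array design 028005, probes placed on mm9). The deposited intensity values were background-subtracted and detrended within each array and not normalized between arrays. The other deposited columns used were the scanner's flags for outliers, saturation and signal over background. RNA was transcribed from PCR-amplified cDNA of single cells, so that values reflect amplification as well as expression.

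After removal of control and outlier spots, replicate spots were averaged, and the 55295 of 55681 probes usable on all 8 arrays were kept (386 left out). No probe was saturated. A probe was called where over 50% of its spots were well above background. Arrays were scaled to the 50th percentile of the 7570 probes called on all arrays, the floor of 50 was set, and log2 was taken. Probes of other genes were named through RefSeq accessions for 28331 probes. A gene is given by its probe with the highest mean. Where a genotype was called in no cell, the difference rests on the floor and is no bound. All members are named; of the lists, genes at least 5-fold apart and called in all 4 cells of the higher genotype, and others where stated. The 3 probes with the highest r are named for members called in at least 4 cells. Members, lists and markers were chosen with earlier results of these data known. Alternatives were the 75th percentile, all probes for the percentile, the floor set before scaling, floors of 10 and 200, quantile normalization, normexp (offset 50), the mean of all probes, other filters on dim probes, a laxer call of detection, and omission of each cell in turn. The steps were run on simulated data with less spread between cells than the members over the floor had, and with shifts set in bright probes alone. That run does not show how well the differences of the members are recovered. Cell numbers are those of the labels. Software was Python 3.11.15, numpy 2.4.6, pandas 2.3.3, matplotlib 3.10.9, R 4.3.3 and limma 3.58.1.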

Additional observations from a re-analysis of the deposited data

Results flagged for a closer look

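In 5 of 10 groups of 4 cells, 1 cell lay far from the other 3 by the ratio of its gap to the whole range. In 3 of the 5 the other cells all lay at the floor, which makes the ratio 1.0 by construction. The rate of about 1 in 20 groups that chance gives does not apply to these 3 and applies to the other 2 at best roughly, since values at the floor also set 1 of them. *Klf2* in KO cell 1 lay below the other KO cells with a ratio of 0.873. *Foxc2* in WT cell 3 lay below the other WT cells, with no cell at the floor, with a ratio of 0.843. *Foxc1* in WT cell 4 had a ratio of 1.0, *Foxp1* in WT cell 4 had 1.0, and *Foxp1* in KO cell 4 had 1.0, each as the sole cell over the floor.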

How the results depend on the processing

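The differences of the 6 members over the floor moved by less than the SD between cells in all 92 values under the alternatives, 15 or 16 per member. This is a wide limit, since that SD was 0.62 to 3.50, and the signs of *Foxc2*, *Foxo1* and *Foxp1* turned. For the omission of a cell the outcome was fixed in advance. With 4 cells per genotype, leaving out 1 cannot move the difference by as much as this SD. The count of 92 is therefore no measure of robustness. *Foxc2* ranged from -0.86 to 2.42, *Foxo1* from -0.67 (mean of both probes) to 2.74, *Foxp1* from -1.49 to 0.23, *Klf2* from 1.28 to 3.88 and *Klf6* from -4.11 (floor of 10) to -1.70. The floor set before scaling moved the median of all probes to 0.24. With signals that were positive and significant counted as detected, *Foxc1* was detected in 2 cells in place of 1 and *Foxo3* in 7 in place of 1. By the same count *Klf2*, *Foxc2* and *Foxo1* were each detected in 8 cells in place of 7, and *Klf6* in 3 in place of 2. Over all probes, 760 were at least 5-fold higher and 765 lower in KO cells. These counts became 1439 and 1485 with a floor of 10, 370 and 271 with a floor of 200, 173 and 128 for probes called on all 8 arrays, and 454 and 357 for probes called in all 4 cells of a genotype. Leaving out 1 cell gave 646 to 1115 higher and 788 to 1228 lower, the last without WT cell 1. Of 423 medians and counts of lists, 61 moved. The sign of most list medians turned under some alternative: the KLF2 and KLF4 targets went from -0.46 to 1.07 for probes called in all 4 cells of a genotype and the FOXO targets from -0.25 to 0.57 for probes called on all 8 arrays. With 1 cell left out, the genes upstream of KLF2 and KLF4 went from 0.13 to -0.45 (KO cell 2), the FOXC list from 0.16 to -0.42 (KO cell 2) or 0.76 (KO cell 1), the FOXP1 partners from 0.23 to -0.23 (KO cell 4), the other KLF genes from 0.15 to -0.06 (KO cell 3) and the inputs to FOXO from 0.07 to -0.09 (KO cell 1). No paired analysis was possible because the values come from no test and replicate numbers only name cells. A member that was not called has only an upper limit on its level at the depth of that array.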
